A study of Mus musculus with 35 samples.

Results

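The striatum is the main target of the dopamine neurons of the midbrain, and 9 genes of this circuit were followed through 6 mouse tissues. They were taken by symbol as listed. *Drd1* and *Drd2* encode the D1 and D2 dopamine receptors, *Adora2a* the adenosine A2a receptor and *Ppp1r1b* the signalling protein DARPP-32. *Penk*, *Pdyn* and *Tac1* encode the precursors of enkephalins, dynorphins and substance P. *Th* (tyrosine hydroxylase) and *Slc6a3* (the dopamine transporter) mark the cells that make and take up dopamine. All 9 of 9 were found among the 55356 genes of the count table. The RNA came from adult C57BL/6J mice with no treatment named, and it was depleted of ribosomal RNA and sequenced as 29 strand-specific RNA-seq libraries. Brain, cerebellum, heart and colon were sampled in both sexes, and the gonads were ovary in females and testis in males. Each tissue and sex had 3 libraries, apart from male heart with 2, giving 10 groups. The labels do not say which brain regions were dissected, whether animals were pooled, or which libraries share an animal, so the *P* values measure the spread between libraries.

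Most neurons of the striatum are GABAergic projection neurons of a pair of types. Those of the direct pathway carry D1 receptors with dynorphin and substance P, and those of the indirect pathway carry D2 and adenosine A2a receptors with enkephalin. D1 receptors raise cyclic AMP and D2 receptors lower it, and DARPP-32, which inhibits protein phosphatase 1 once phosphorylated by protein kinase A, is abundant in both types. Dopamine itself is made in midbrain neurons whose cell bodies, and so most of their mRNA, lie outside the striatum. The precursor genes are also used elsewhere in brain, gut and gonads, and *Th* is used by noradrenergic neurons too.

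The 3 precursor genes are shown first by the stretches that encode their peptides, because the same core recurs within and between genes. They were read from GENCODE release M21 transcripts on GRCm38, 5′ to 3′ on the coding strand. Capitals mark the codons of the peptide, and the lower-case ends are the pair of codons on each side.
Penk, Met-enkephalin copy 1, chr4:4134328-4134354, strand -: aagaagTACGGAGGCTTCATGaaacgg
Penk, Met-enkephalin copy 2, chr4:4134307-4134333, strand -: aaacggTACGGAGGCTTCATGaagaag
Penk, Met-enkephalin copy 3, chr4:4134220-4134246, strand -: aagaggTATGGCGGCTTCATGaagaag
Penk, Met-enkephalin copy 4, chr4:4134067-4134093, strand -: aagaggTATGGGGGCTTCATGagaagc
Penk, Met-enkephalin copy 5, chr4:4133995-4134021, strand -: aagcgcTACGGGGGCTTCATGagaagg
Penk, Met-enkephalin copy 6, chr4:4133842-4133868, strand -: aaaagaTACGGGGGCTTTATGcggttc
Penk, Leu-enkephalin, chr4:4133935-4133961, strand -: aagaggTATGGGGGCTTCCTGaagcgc
Pdyn, Leu-enkephalin copy 1, chr2:129688232-129688258, strand -: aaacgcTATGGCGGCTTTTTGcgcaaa
Pdyn, Leu-enkephalin copy 2, chr2:129688124-129688150, strand -: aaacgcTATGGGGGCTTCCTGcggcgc
Pdyn, Leu-enkephalin copy 3, chr2:129688067-129688093, strand -: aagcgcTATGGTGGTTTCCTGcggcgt
Tac1, substance P, chr6:7556726-7556770, strand +: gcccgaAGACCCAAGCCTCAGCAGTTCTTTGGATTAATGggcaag
Tac1, neurokinin A, chr6:7557740-7559136, strand +: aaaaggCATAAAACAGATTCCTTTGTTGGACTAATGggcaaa
The *Penk* coding sequence of 268 codons held 6 Met-enkephalin stretches and 1 Leu-enkephalin stretch, all in exon 2 of 2. All 7 were preceded by a pair of lysine or arginine codons, the kind of site at which prohormone convertases cut, and 5 were also followed by one. In the 248 codons of *Pdyn*, the last of 4 exons held 3 Leu-enkephalin stretches, each between such pairs. *Tac1*, with 130 codons, held substance P in exon 3 of 7. The printed neurokinin A stretch, flanking codons included, lay across exons 5 and 6 and so spans an intron. Whether the intron falls in the peptide or in its flank was not determined. By position, all 4 Iso-seq models of *Penk* held 6 of these 7 stretches. In 1 model copy 4 was missing, as it falls in a gap of 46 bases at chr4:4134056-4134101. This length is not a multiple of 3, and copies 5 and 6 and the Leu-enkephalin stretch lie downstream of it. Whether that model still reads them in frame was not tested. Of the 3 models of *Pdyn* on which its reads were counted, 1 held the 3 stretches and the other two held none of them.

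In Iso-seq, full-length cDNA is read from end to end, and genes with such transcripts were counted on those models. This held for 6 of the 9 genes, and *Drd2*, *Pdyn* and *Th* were counted on ENSEMBL models. On GRCm38, *Drd1* (PB.3202) lay at chr13:54051192-54055115 on the minus strand with 2 transcripts, and *Drd2* (ENSMUSG00000032259) at chr9:49340627-49408177 on the plus strand with 1. *Adora2a* (PB.1045) lay at chr10:75317124-75334787, plus, with 1 transcript, and *Ppp1r1b* (PB.2172) at chr11:98348711-98357796, plus, with 2. *Penk* (PB.8129) lay at chr4:4133532-4138792, minus, *Pdyn* (ENSMUSG00000027400) at chr2:129686565-129699844, minus, and *Tac1* (PB.9884) at chr6:7554989-7562976, plus. *Th* (ENSMUSG00000000214) lay at chr7:142892752-142931128, minus, and *Slc6a3* (PB.3311) at chr13:73536787-73578675, plus, as 1 transcript of 15 exons. The coding exons printed next set apart known isoforms, namely the longer *Tac1* mRNA and the long form of the D2 receptor.
Tac1, exon 4 of 7, chr6:7557216-7557260, strand +: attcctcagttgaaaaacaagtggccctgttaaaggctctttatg
Drd2, exon 6 of 8, chr9:49403194-49403280, strand +: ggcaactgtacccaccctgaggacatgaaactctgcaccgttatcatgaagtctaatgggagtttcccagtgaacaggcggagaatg
The 2 Iso-seq transcripts of *Tac1* had 7 and 6 exons, and they differed inside the gene by this exon of 45 bases. The single *Drd2* model contained its exon of 87 bases. Counts were per gene, so isoforms were not separated.

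Promoters from RefSeq on GRCm38.p6, covering 250 bases before to 50 after a start, were at hand for 6 of the 9 genes, in 8 windows. All 8 were searched on both strands for 5 motifs as a description, and the 2 shown are those with a match to the cyclic AMP response element or its core, printed in capitals.
Th promoter, chr7:142899946-142900245, strand -: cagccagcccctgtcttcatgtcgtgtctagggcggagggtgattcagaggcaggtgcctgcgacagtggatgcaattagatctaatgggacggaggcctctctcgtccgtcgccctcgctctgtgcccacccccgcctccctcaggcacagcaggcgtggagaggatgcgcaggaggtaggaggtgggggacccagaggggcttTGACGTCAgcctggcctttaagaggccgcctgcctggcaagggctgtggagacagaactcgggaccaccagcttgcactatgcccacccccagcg
Tac1 promoter, chr6:7554811-7555110, strand +: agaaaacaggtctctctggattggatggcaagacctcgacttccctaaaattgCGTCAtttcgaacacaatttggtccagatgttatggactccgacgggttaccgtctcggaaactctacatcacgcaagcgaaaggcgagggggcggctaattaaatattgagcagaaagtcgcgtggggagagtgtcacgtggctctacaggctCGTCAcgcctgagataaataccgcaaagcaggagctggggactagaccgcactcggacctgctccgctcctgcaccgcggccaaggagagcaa
The full element TGACGTCA, which is its own reverse complement, was found in 1.79% of 32851 such windows and in 1 of the 8, that of *Th*, 45 bases before the start. Its core TGACG, which the full element holds on both strands, was found in 20.8% of windows. It occurred in that of *Th* and in that of *Tac1*, 197 and 43 bases before the start. TATAAA, present in 13.6%, was in none of the 8. GGGCGG, present in 35.7%, was in 6 of the 8, and CCAAT, present in 37.4%, was in 3.

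Total counts per library ran from 11742417 to 36194255, with 24403774 to 36194255 in brain and 19075669 to 27087240 in cerebellum. Levels are given as FPKM, a gene's counts scaled by the total count of the library and by the summed length of its exons. The 10 cerebellar neuron markers summed to 2202 to 3729 FPKM in cerebellum and 88.4 to 142.8 FPKM in brain, none of them at 0. The 7 cortex and hippocampus markers summed to 180.4 to 292.3 FPKM in brain and 41.1 to 66.6 FPKM in cerebellum. Libraries of one label stood apart in marker content. The cortex and hippocampus sum was 180.4 FPKM in female brain 1, 220.2 FPKM in male brain 1 and 228.1 FPKM in female brain 3, and 268.0 to 292.3 FPKM in the other 3 brain libraries. A list of 9 brainstem markers at 8 loci, added after values were seen, summed to 10.6 FPKM in female brain 1 and 2.97 to 4.08 FPKM in the other 5 brain libraries, each locus counted once. In cerebellum, this list gave 21.5 and 11.6 FPKM in female libraries 2 and 3, 18.9 FPKM in male library 3, and 0.967 to 5.54 FPKM in the other 3, and its genes also gave 33.6 to 38 FPKM in testis. Testicular germ cell markers summed to 17090 to 20480 FPKM in testis, and ovarian markers to 114.0 to 202.3 FPKM in ovary. Female heart 3 had 15740 FPKM of 5 cardiomyocyte markers against 32540 to 41390 FPKM in the other heart libraries.

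Brain had the highest mean of 8 of the 9 genes, and *Th* was highest in cerebellum. Tau, an index of tissue specificity from 0 (even) to 1 (one tissue), ranged from 0.8146 for *Penk* to 0.9962 for *Drd1*. The 6 brain libraries carried 98.7% of all *Drd1* counts in the data set, 95.2% of those of *Pdyn* and 32.3% of those of *Th*. In brain, *Ppp1r1b* and *Penk* stood highest, at 179.0 ± 64.9 and 167.9 ± 70.3 FPKM (SD, n = 6 libraries). *Tac1* followed at 40.8 ± 17.8 FPKM, then *Drd1* at 13.7 ± 5.99, *Pdyn* at 11.1 ± 4.01, *Drd2* at 10.1 ± 4.03 and *Adora2a* at 8.92 ± 4.11 FPKM. *Th* (2.55 ± 1.16 FPKM) and *Slc6a3* (0.572 ± 0.706 FPKM) were the lowest of the 9. In bulk tissue, fewer cells of a type and less RNA per cell cannot be told apart.

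**Figure D1:**
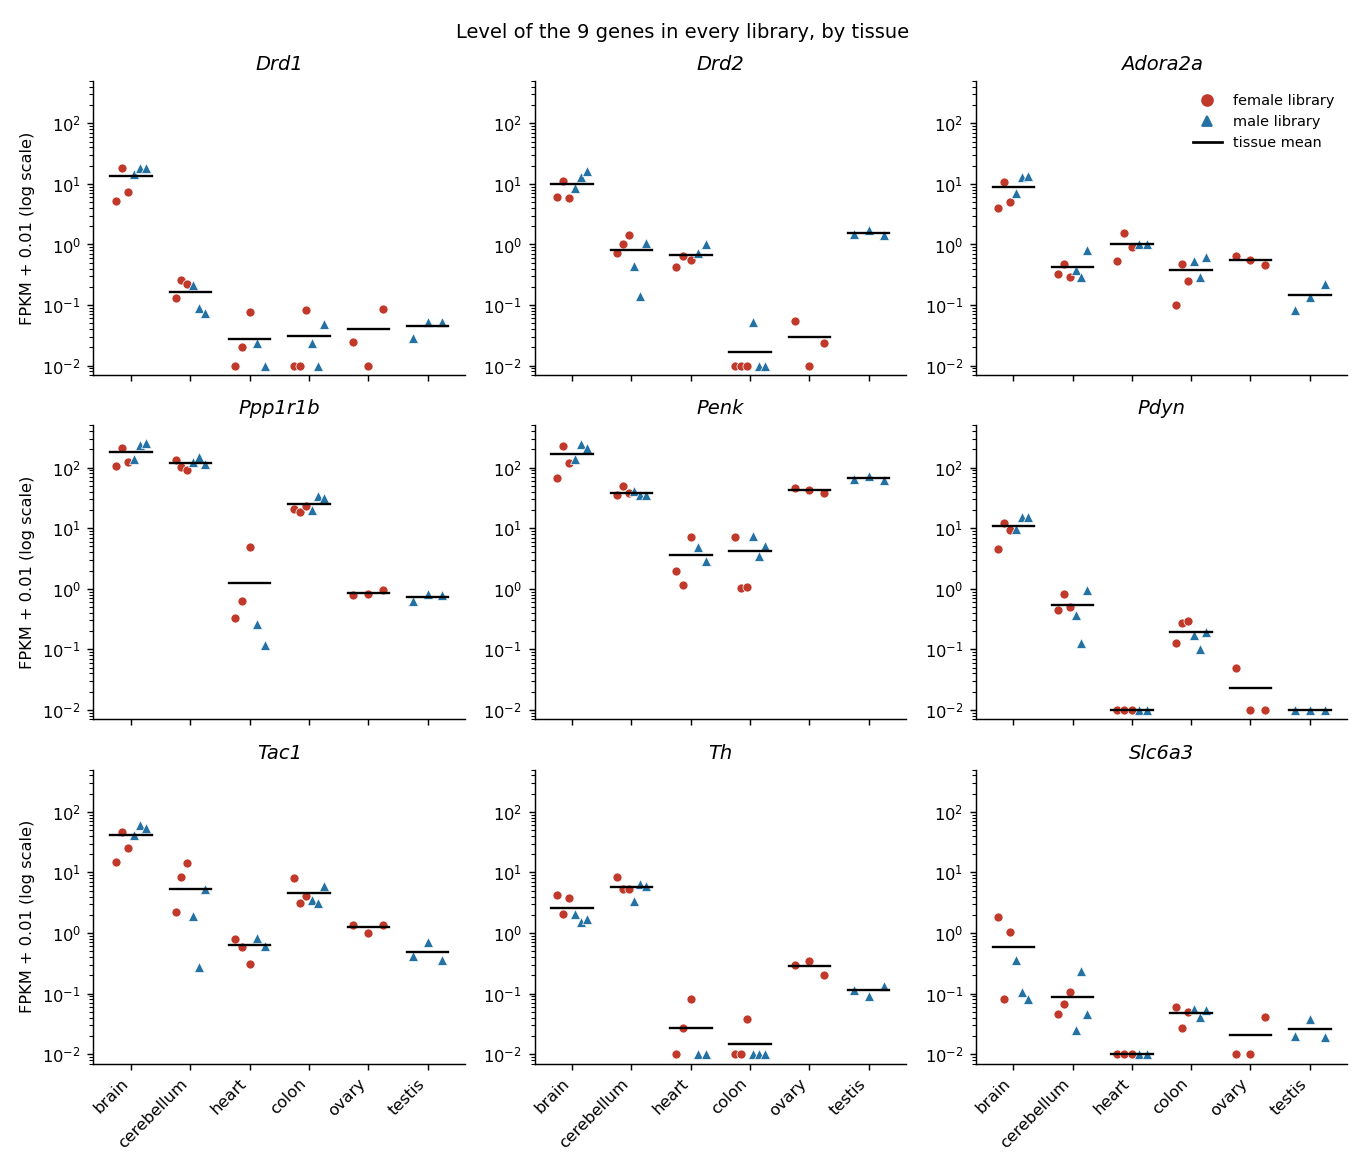
FPKM of each of the 9 genes in all 29 libraries, plotted by tissue on a log axis after adding 0.01, with circles for female and triangles for male libraries and a black line at the tissue mean. *Drd1* and *Pdyn* in brain lie far above the other tissues, *Ppp1r1b* stays near its brain level in cerebellum, *Penk* is also high in ovary and testis, and *Th* is highest in cerebellum.

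Brain was first set against cerebellum, both sexes together. At an adjusted *P* under 0.05, 7 of the 9 genes were higher in brain and 1, *Th*, was lower, while 15.3% of the 29911 genes tested were higher and 10.8% lower, with a median difference of 0. These tests and all adjusted *P* values are from edgeR's quasi-likelihood test. Among the receptors, *Drd1* counts were 515, 1998 and 757 in female brain and 1423, 2541 and 1708 in male brain, against 6 to 24 in the 6 cerebellum libraries. The libraries did not overlap, and the log2 difference was 6.63 ± 0.43 (SE, edgeR adjusted *P* = 8.5e-12). *Adora2a* was at 3.95, 10.9 and 5.11 FPKM in female brain and 7.04, 13.2 and 13.3 FPKM in male brain. All 6 values lay above the cerebellum range of 0.282 to 0.787 FPKM, with a log2 difference of 4.52 ± 0.37 (edgeR adjusted *P* = 7.58e-10). *Drd2* ran from 5.88 to 16.1 FPKM in brain and from 0.133 to 1.41 FPKM in cerebellum, a log2 difference of 3.84 ± 0.35 (edgeR adjusted *P* = 1.04e-08). As ratios of mean FPKM, brain was above cerebellum by 88.8-fold for *Drd1*, 21.4-fold for *Adora2a* and 12.7-fold for *Drd2*.

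The 3 peptide precursors were all higher in brain than in cerebellum. *Pdyn* was at 4.603, 12.1 and 9.46 FPKM in female brain and 9.86, 15.0 and 15.3 FPKM in male brain, against 0.117 to 0.946 FPKM in cerebellum, with no overlap. Its log2 difference was 4.50 ± 0.39 (edgeR adjusted *P* = 1.98e-08). *Penk*, by contrast, kept 34.7 to 48.8 FPKM in cerebellum, where the 6 libraries differed by 1.41-fold at most, and its brain values of 67.8 to 243.3 FPKM lay above them. The log2 difference was 2.24 ± 0.35 (edgeR adjusted *P* = 1.92e-05). *Tac1* ranged from 14.8 to 61.8 FPKM in brain and from 0.265 to 14.1 FPKM in cerebellum, so that its highest cerebellum library came close to its lowest brain library. Its log2 difference was 3.26 ± 0.46 (edgeR adjusted *P* = 3.99e-06).

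The gene of DARPP-32 had a much smaller difference. *Ppp1r1b* was at 105.3, 212.6 and 121.8 FPKM in female brain and 139.6, 234.9 and 259.9 FPKM in male brain, and at 90.1 to 147.2 FPKM in cerebellum. The ranges overlapped, and the log2 difference of 0.71 ± 0.29 did not pass the test (edgeR adjusted *P* = 0.0703). This call depended on the libraries used, since the estimate without female brain 1 and 3 was 0.99 (edgeR adjusted *P* = 0.0396). It was also called when female heart 1, female heart 3, female brain 1 or male brain 1 was left out, with estimates of 0.52 to 0.84 over the 29 fits without 1 library. Without female heart 3, for instance, it was 0.71 (edgeR adjusted *P* = 0.00473). Of the partners of DARPP-32 in this pathway, 7 of 10 were higher in brain and 1 was lower, with a median log2 difference of 0.83. *Ppp1r1a*, another inhibitor of protein phosphatase 1, differed by 2.17, *Prkar2b*, a regulatory subunit of protein kinase A, by 1.97 and *Ppp3ca*, the catalytic subunit of calcineurin, by 1.70 on the log2 scale. *Ppp1cc*, a catalytic subunit of protein phosphatase 1, fell by 0.34.

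*Ppp1r1b* shares its locus with another gene. *1700003D09Rik* lies on the opposite strand at chr11:98350718-98358283, and its exons overlap those of *Ppp1r1b* by 164 bases. It was the gene most like *Ppp1r1b* of all 29911 tested, with *r* = 0.998 over the 29 libraries on log2 CPM. Its counts were 39.8% to 46.2% of those of *Ppp1r1b* in the brain libraries, 42.4% to 44.8% in cerebellum, 29.7% to 45.2% in colon and 60.5% to 65.6% in testis. *Penk* overlaps *A830012C17Rik* on the opposite strand (chr4:4138321-4188703) by 220 exon bases. The counts of that gene were 1.24% to 1.82% of those of *Penk* in brain and 9.44% to 10.8% in testis. The strand setting used in counting is not given in the sources used here, so reads of each pair cannot be told apart with certainty.

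**Figure D2:**
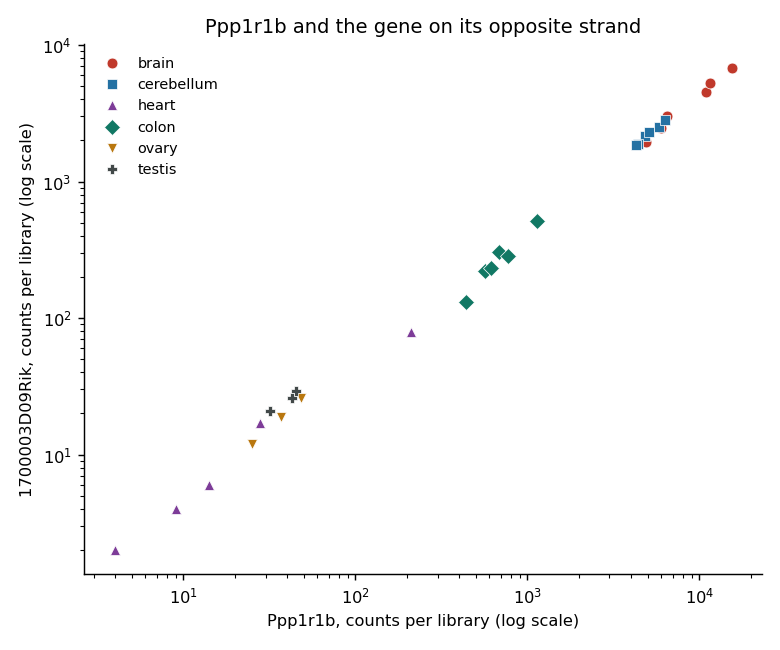
Counts of *Ppp1r1b* (horizontal axis) and of *1700003D09Rik* on the opposite strand (vertical axis) in each of the 29 libraries, both on log axes, with a symbol for each tissue. From 4 to 15394 counts of *Ppp1r1b*, the points of all 6 tissues lie near a single line.

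*Th* and *Slc6a3* went in opposite directions. *Th* counts were 259, 140 and 242 in female brain and 124, 127 and 98 in male brain, against 480, 322 and 340 in female and 154, 358 and 351 in male cerebellum. In FPKM, brain ran from 1.48 to 4.26 and cerebellum from 3.42 to 8.42, a slight overlap, and the log2 difference was -1.14 ± 0.25 (edgeR adjusted *P* = 0.00122). With the female libraries alone it was -0.82 and did not pass (edgeR adjusted *P* = 0.16). *Slc6a3* counts were 158, 7 and 97 in female brain and 31, 12 and 6 in male brain, against 1 to 18 in cerebellum. Female brain 1 and 3 were high and the other 4 brain libraries reached 0.0718 to 0.353 FPKM, within or just above the cerebellum range of 0.0153 to 0.223 FPKM. The log2 difference of 2.50 ± 0.65 passed the test (edgeR adjusted *P* = 0.00578), but without female brain 1 and 3 it was 0.67 (edgeR adjusted *P* = 0.659). In female libraries alone it was 3.98 and passed, and in male libraries alone 1.02 (edgeR adjusted *P* = 0.503). *Ddc* and *Slc18a2*, which act after *Th* in making and storing dopamine, were at 2.32 and 1.80 FPKM in brain and 2.48 and 2.68 FPKM in cerebellum, and neither passed the test.

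**Figure D3:**
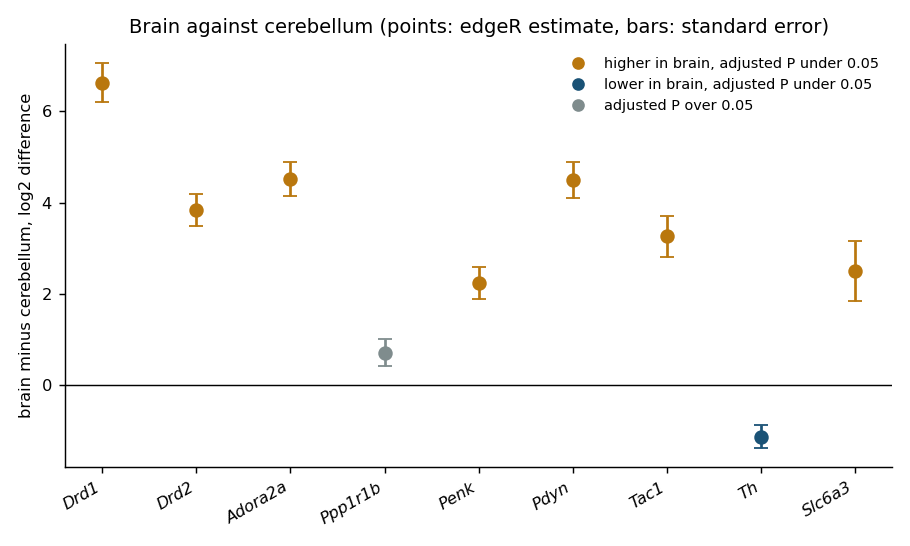
Log2 difference of brain from cerebellum for each of the 9 genes, as estimated by edgeR over all 29 libraries, with bars of 1 standard error. *Drd1* is highest at 6.63, *Ppp1r1b* at 0.71 is the gene that did not pass the test, and *Th* at -1.14 is the one below 0.

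The 6 brain libraries differed from each other in a way shared by the genes followed here. Pairs of other genes were not tested in these libraries, so the counts of passing pairs given below have no background. They cannot show whether the pattern is particular to these genes. *Drd1*, *Drd2*, *Adora2a*, *Ppp1r1b*, *Penk*, *Pdyn* and *Tac1* all had their lowest values in female brain 1 and 3, by a small margin over male brain 1 for *Pdyn*. *Tac1*, for instance, was at 14.8 and 25.04 FPKM in those libraries and at 41.7 to 61.8 FPKM in the other 4. *Th* and *Slc6a3* were highest in exactly those libraries, at 4.26 and 3.75 FPKM and at 1.80 and 1.04 FPKM. Over the 6 libraries, the 21 pairs among the first 7 genes had Pearson's *r* between 0.856 and 0.991 on log2 CPM and Spearman's rho between 0.8286 and 1. All 21 had an adjusted *P* between 0.0077 and 0.0243 by exact permutation tests, two-sided, adjusted over all 36 pairs, and 19 of the 21 also passed by rho (adjusted *P* up to 0.0677, exact permutation). The 14 pairs of these 7 with *Th* or *Slc6a3* had *r* between -0.973 and -0.854 (adjusted *P* up to 0.0221, exact permutation). Their rho was between -0.943 and -0.771, and 6 of the 14 passed by rho (adjusted *P* from 0.0261 to 0.1057, exact permutation). These 6 were pairs with *Th*, and none of the 7 with *Slc6a3* passed by rho (adjusted *P* from 0.068 to 0.106, exact permutation). Without the 2 libraries farthest from the median, *r* ranged from 0.825 to 0.998 in the first set and from -0.978 to -0.586 in the second, over 4 libraries. *Th* with *Slc6a3* had *r* = 0.916, rho = 0.6 and *r* = 0.234 without the 2 farthest libraries, so in these values that relation rests on them (adjusted *P* = 0.0278 for *r* and 0.2417 for rho, exact permutation).

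Female brain 1 was left out for every pair, together with female brain 3 for 17 of the 36 pairs and with male brain 2 or 3 for the rest. Taken as deviations from the mean of each sex, 20 of the 21 pairs and 13 of the 14 still passed by *r*. The permutation ran over all 6 libraries and not within each sex, so these calls are only approximate. *Th* with *Slc6a3* then had *r* = 0.963 and rho = 0.886, with *r* = 0.821 without the 2 farthest libraries. Calls by rho depended on the scaling, since with total counts in place of TMM 12 of the 21 and 1 of the 14 passed by rho, while all 21 and all 14 passed by *r*. Marker lists moved with this split only in part. Summed over 21 other striatal projection neuron genes, female brain 1 and 3 gave 380.3 and 440.0 FPKM against 581.2 to 852.5 FPKM in the other 4, and none of the 21 was at 0. The 14 other dopamine neuron genes gave 103.8 and 67.8 FPKM in those libraries against 40.4 to 58.3 FPKM, but most of this sum was *Aldh1a1*, at 78.8 and 50.5 FPKM against 28.04 to 40.6 FPKM. The other 13 summed to 24.97 FPKM in female brain 1, 17.4 FPKM in female brain 3 and 12.4 to 17.8 FPKM in the other 4, so female brain 3 did not stand apart in them. Noradrenergic markers, 5 genes, gave 4.38 FPKM in female brain 1 and 0.231 to 0.491 FPKM in the other 5, female brain 3 included. The hypothalamus markers, 6 genes, ran from 4.596 to 71.4 FPKM, with the highest value in female brain 3. Female brain 1, at 19.3 FPKM, lay below male brain 1 and 2, at 43.2 and 21.25 FPKM. The cerebellar neuron markers gave 142.8 and 128.4 FPKM in female brain 1 and 3 and 88.4 to 111.7 FPKM in the other 4. Their part in these results was not tested.

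**Figure D4:**
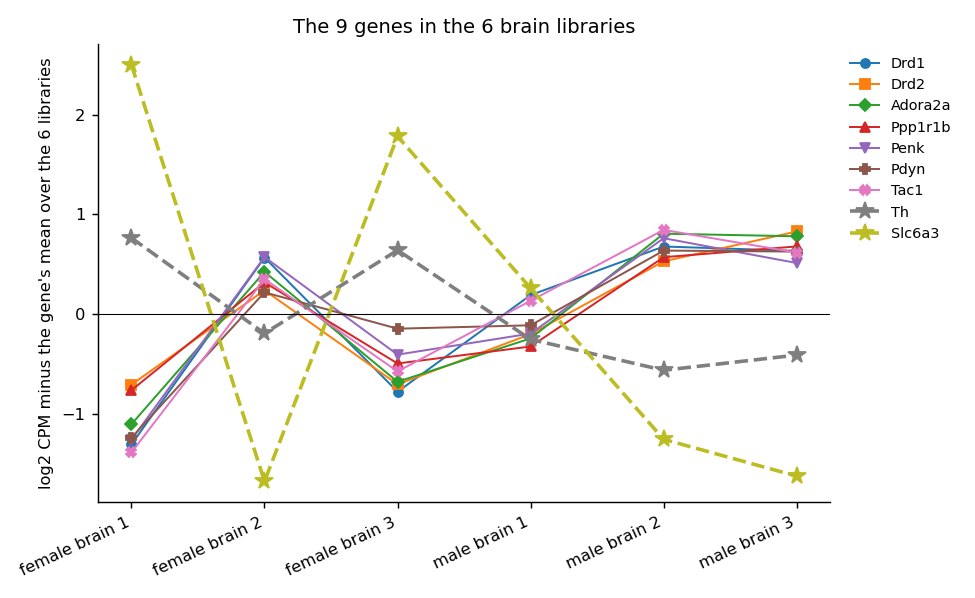
Log2 CPM of each of the 9 genes in the 6 brain libraries, as the difference from that gene's mean over these libraries, with lines that only join the points of a gene. *Th* and *Slc6a3* (stars, dashed) are highest in female brain 1 and 3, where the other 7 genes have their 2 lowest values, and *Pdyn* in male brain 1 lies next to female brain 3.

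In the 6 cerebellum libraries, *Tac1* varied more than any other of the 9 genes. Its counts were 60, 237 and 427 in female and 41, 7 and 145 in male libraries, a 53.2-fold range in FPKM. *Drd2* counts were 44, 67 and 97 in female and 21, 8 and 66 in male cerebellum, a 10.6-fold range. *Pdyn* had 30, 60 and 39 counts in female and 20, 8 and 67 in male cerebellum. All 3 genes were lowest in male cerebellum 2 and highest in the 3 libraries with the most brainstem markers. *Slc6a3*, with a 14.5-fold range on 1 to 18 counts, was instead highest in male cerebellum 2. *Drd1*, with a 3.82-fold range, was lowest in male cerebellum 3. *Ppp1r1b*, *Penk* and *Th* varied by 1.63-fold, 1.41-fold and 2.47-fold. Without those 3 libraries, the difference of brain from cerebellum still passed for *Drd1*, *Drd2*, *Adora2a*, *Penk*, *Pdyn*, *Tac1* and *Th*, and it did not for *Slc6a3* (2.63, edgeR adjusted *P* = 0.0732). The difference of *Tac1* was then 4.73 in place of 3.26, that of *Drd2* 4.53 in place of 3.84 and that of *Pdyn* 5.15 in place of 4.50. Leaving out male cerebellum 3 alone gave 3.88 for *Tac1*, and leaving out male cerebellum 2 alone gave 3.37 for *Slc6a3*. In female and in male libraries alone, the difference was 1.97 and 4.55 for *Tac1*, 3.0 and 4.68 for *Drd2* and 5.85 and 7.41 for *Drd1*. The share of brainstem tissue in these values was not tested.

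**Figure D5:**
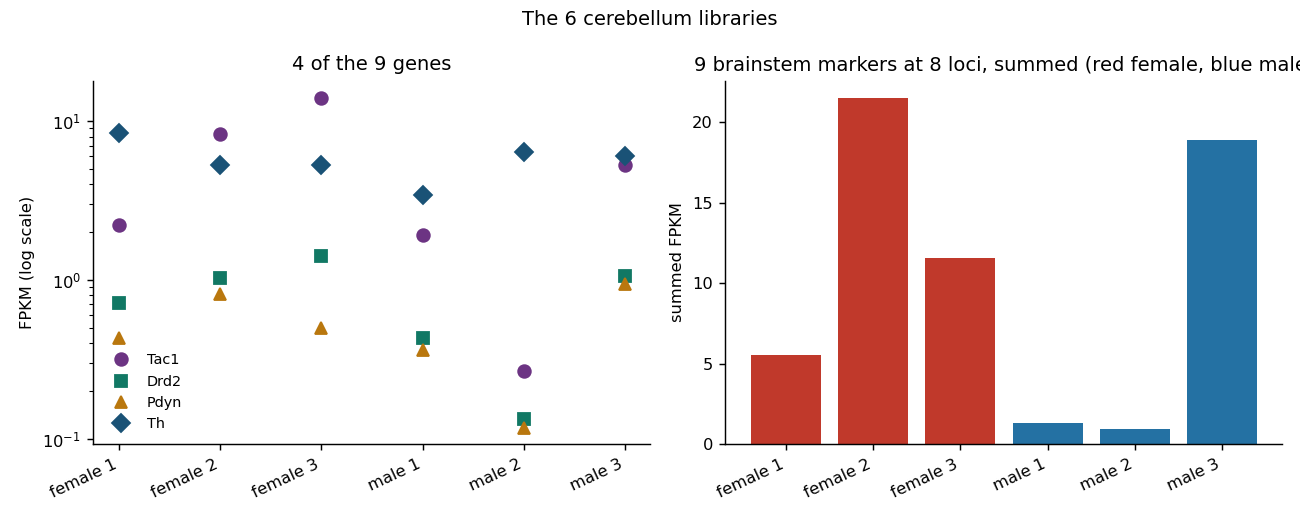
The 6 cerebellum libraries, with FPKM of *Tac1*, *Drd2*, *Pdyn* and *Th* on a log axis (left) and the summed FPKM of 9 brainstem markers at 8 loci (right, red female and blue male). *Tac1* runs from 0.265 FPKM in male library 2 to 14.1 FPKM in female library 3, while the marker sum runs from 0.967 to 21.5 FPKM.

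Brain and cerebellum were then each compared with the mean of heart, colon, ovary and testis. The median log2 difference over all genes was -0.14 for brain and -0.13 for cerebellum. All 9 genes were higher in brain, against a background of 34.3% of genes tested. The log2 differences were 9.08 ± 0.36 for *Drd1*, 6.70 ± 0.27 for *Ppp1r1b*, 5.08 ± 0.36 for *Tac1*, 4.40 ± 0.27 for *Adora2a* and 3.57 ± 0.27 for *Penk*. Against heart and colon only, they were 5.47 for *Ppp1r1b*, 5.37 for *Penk*, 4.38 for *Tac1* and 3.70 for *Adora2a*. For *Pdyn*, the lowest brain library was at least 86.8-fold higher than heart, where all 5 libraries were at 0, taking 3 counts per library as the limit. Cerebellum was higher for 8 of the 9, against 32.7% of genes, and *Adora2a* was the exception, at -0.12 ± 0.32 (edgeR adjusted *P* = 0.876). *Ppp1r1b* differed by 5.99 ± 0.26 and *Penk* by 1.33 ± 0.27. For *Tac1*, the difference of 1.82 ± 0.38 passed (edgeR adjusted *P* = 1.46e-04), but without the 3 cerebellum libraries rich in brainstem markers it was 0.22 (edgeR adjusted *P* = 0.843), and without male cerebellum 3 alone 1.20. For *Slc6a3*, which was at 0 in heart so that the estimate is no fold, the call was lost without them (edgeR adjusted *P* from 0.00212 to 0.0553). Its estimate was 2.79 with all libraries, 2.54 without those 3, 1.92 without male cerebellum 2 and 3.47 without female ovary 3. Without those 3 libraries, the estimates of *Drd2* and *Pdyn*, no folds either because female colon or heart was at 0, went from 2.69 to 1.89 and from 5.84 to 5.07, and both still passed. For brain, that of *Slc6a3* went from 5.29 to 3.46 without female brain 1 and 3, and it still passed.

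Outside the nervous system, each tissue was set against the mean of the other 3, with a median log2 difference over all genes of -0.53 in heart, -0.27 in colon, -0.11 in ovary and 0.18 in testis. In heart, 2 genes were higher than in colon, ovary and testis, against 21.6% of genes tested, and 2 were lower, against 29.3%. Both higher genes are receptors. *Drd2* had 26, 40 and 33 counts in female and 35 and 52 in male heart, with 0 to 2 in colon and ovary (edgeR adjusted *P* = 1.19e-07 against the mean of the other 3 tissues). Every testis library was above every heart library. No fold is given for it, since female colon was at 0. *Adora2a* was at 0.519, 1.57 and 0.906 FPKM in female and 1.00 and 1.02 FPKM in male heart, a log2 difference of 2.30 ± 0.33 (edgeR adjusted *P* = 1.4e-06). The lower genes were *Penk*, at 1.15 to 7.22 FPKM (-2.16 ± 0.38, edgeR adjusted *P* = 2.44e-05), and *Ppp1r1b* (-1.66 ± 0.42, edgeR adjusted *P* = 0.00175). Without female heart 3, the difference of *Ppp1r1b* was -2.41. *Ppp1r1b* had 210 counts in female heart 3 and 4 to 28 in the other 4 heart libraries. *Slc6a3*, at 0 in all 5, did not pass (edgeR adjusted *P* = 0.0892), but it did without female brain 1 and 3 (edgeR adjusted *P* = 0.0356), without female brain 2 alone (edgeR adjusted *P* = 0.0419) and with total counts in place of TMM (edgeR adjusted *P* = 0.0429).

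In colon, 4 genes were higher than in the other 3 tissues (26.8% of genes tested) and 2 were lower (28.4%). *Ppp1r1b* was at 20.7, 18.4 and 23.1 FPKM in female and 20.05, 33.4 and 32.1 FPKM in male colon, above every heart, ovary and testis library. The log2 difference was 4.92 ± 0.30 (edgeR adjusted *P* = 1.87e-13). *Tac1*, whose substance P is a transmitter of enteric neurons, ranged from 3.09 to 7.99 FPKM in colon, with a log2 difference of 2.43 ± 0.43 (edgeR adjusted *P* = 2.3e-05). *Pdyn* had 4 to 13 counts in each colon library, 2 in 1 ovary library and 0 in every heart and testis library. *Slc6a3* had 1 to 3 counts per colon library, and its call (edgeR adjusted *P* = 0.0474) was lost in 17 of the 29 fits that left out a library and without the 3 cerebellum libraries rich in brainstem markers (edgeR adjusted *P* = 0.0566). *Drd2*, with 2 counts over the 6 libraries, and *Penk*, at 1.03 to 7.48 FPKM, were lower. The log2 difference of *Penk* was -2.65 ± 0.35 (edgeR adjusted *P* = 4.46e-07), and -3.36 without female colon 1. Of 8 enteric neuron markers none was at 0 in colon, and their sum was 26.6 to 34.6 FPKM against 3.25 to 7.05 FPKM in heart, but 21.8 to 46.2 FPKM in ovary and 24 to 30 FPKM in testis, where *Uchl1* alone had means of 29.9 and 23.2 FPKM. Gene by gene, 7 of the 8 were higher in colon than in the other 3 tissues and none lower, with a median log2 difference of 3.37. The 5 enteroendocrine markers summed to 24.8 to 35.7 FPKM in colon and to 4.952 FPKM at most in the other 3 tissues. Their part in the colon values was not tested.

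In ovary, *Penk* and *Th* were higher than in heart, colon and testis (22.7% of genes tested) and *Ppp1r1b* was lower than their mean (18.1%). *Penk* was at 46.3, 43.2 and 37.7 FPKM, a log2 difference of 1.54 ± 0.35 (edgeR adjusted *P* = 7.04e-04), although every testis library was higher. *Ppp1r1b*, at 0.765 to 0.944 FPKM, was below colon and female heart 3 but above the other 4 heart libraries, and its ovary mean was 1.15 times that of testis. *Th* had 12, 20 and 13 counts in ovary, 6 to 9 in testis, 0 to 4 in heart and 0 to 1 in colon (edgeR adjusted *P* = 4.46e-06). In testis, 3 genes were higher than the mean of heart, colon and ovary (41.7% of genes tested) and 2 were lower (27.0%). *Penk* was at 65.6, 71.7 and 62.9 FPKM, the highest level outside brain, with a log2 difference of 3.27 ± 0.33 (edgeR adjusted *P* = 2.01e-09). *Drd2* was at 1.504, 1.70 and 1.43 FPKM, above every library of the other tissues except brain (edgeR adjusted *P* = 2.68e-10). *Th*, at 0.0821 to 0.124 FPKM, was the third, although every ovary library was higher, at 0.196 to 0.340 FPKM. *Adora2a* had a log2 difference of -1.79 ± 0.48 (edgeR adjusted *P* = 0.00187), and *Ppp1r1b* one of -1.35 ± 0.43 (edgeR adjusted *P* = 0.00705). *Pdyn* was at 0 in all 3 testis libraries, which allows up to 0.0365 FPKM per library.

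Males and females were compared within brain and cerebellum. None of the 9 genes passed in brain, where 0.0368% of genes tested did (11 of 29911), or in cerebellum, where 0.0301% did (9 genes). At an unadjusted *P* under 0.05, edgeR gave 2 of the 9 in brain, with 1446 of all 29911 genes. In cerebellum it gave 1 of the 9, with 916 of all genes. DESeq2 gave 0 adjusted calls among the 9 in either tissue. In brain, male minus female log2 differences were between 0.59 and 0.93 for the 7 striatal and peptide genes, -0.88 ± 0.35 for *Th* and -2.42 ± 0.86 for *Slc6a3*. These differences rest on female brain 1 and 3. Without them, *Drd1* was at -0.054, *Penk* at -0.16 and *Slc6a3* at 1.26, none past the test, with 1 female library left that is assumed to vary like the other groups. In cerebellum, *Tac1* had the lowest unadjusted *P*, at a log2 difference of -1.66 ± 0.63 (edgeR adjusted *P* = 1), which was -2.91 without male cerebellum 3 and -1.06 without female cerebellum 3. The sex difference in brain was also set against that in cerebellum. It passed for 0 of the 29911 genes by edgeR (0%), with 1189 genes and 3 of the 9 at an unadjusted *P* under 0.05, and DESeq2 gave 4 genes, none of the 9. Those 3 were *Tac1* (2.59 ± 0.86), *Drd2* (1.68 ± 0.65) and *Slc6a3* (-2.96 ± 1.297). Over the 29 fits without 1 library they ranged from 1.99 to 3.84, 1.21 to 2.67 and -3.89 to -1.23. The highest values of *Tac1* and *Drd2* were without male cerebellum 3, and the value of *Slc6a3* nearest 0 was without male cerebellum 2.

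Other genes of these pathways were described as lists, by their counts and medians. Over all genes tested, 15.3% were higher in brain than in cerebellum and 10.8% lower, with a median difference of 0. Among 21 other striatal projection neuron genes, 19 were higher in brain than in cerebellum and none lower, with a median log2 difference of 2.61. *Gpr6*, an orphan receptor of the indirect pathway, was at 3.96 FPKM in brain and 0.0247 FPKM in cerebellum. *Foxp1* and *Scn4b* were the 2 that did not pass, at 0.22 and 0.77. Of the other dopamine receptors, *Drd3* (3.01) and *Drd5* (1.08) were higher in brain and *Drd4* (-1.48) did not pass. For adenosine, *Adora3* alone of 3 passed, at 0.98, and *Adora1*, the A1 receptor, was at 22.7 FPKM in brain and 25.9 FPKM in cerebellum.

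Of 7 receptors for opioid peptides and tachykinins, 6 were higher in brain and none lower, with a median of 1.83. *Oprd1*, the delta opioid receptor, differed by 2.46, *Oprm1*, the mu receptor, by 1.33, and *Tacr3*, the neurokinin 3 receptor, at 0.69, did not pass. All 5 neuropeptide processing genes were higher in brain, led by *Pcsk2*, a prohormone convertase, at 2.33, *Cpe*, carboxypeptidase E, at 1.55 and *Pam*, the amidating enzyme, at 1.33. Of the other precursors, *Tac2* (5.13) and *Pnoc* (1.22) were higher in brain, *Tac4* (-2.46) was lower and *Pomc* (0.31) did not pass.

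The dopamine neuron list did not move as a group. Of 14 genes, 13 were tested, 1 was higher in brain, 5 were lower and 7 did not pass, with a median of -0.40. *Nr4a2*, a transcription factor of dopamine neurons that is also used in other neurons, differed by 1.82. *En2*, *En1* and *Lmx1a*, which are also known from cerebellar development, fell by 4.84, 3.0 and 1.97 on the log2 scale, and the untested gene was *Pitx3*, at 0.0201 FPKM in brain. Among 10 genes of catecholamine cofactors, further synthesis and breakdown, 1 was higher in brain, 4 were lower and 5 did not pass, with a median of -0.21. *Dbh*, which makes noradrenaline from dopamine, was at 0.676 FPKM in brain and 2.63 FPKM in cerebellum, a log2 difference of -2.15. Of 5 noradrenergic markers, 4 were lower in brain and 1 did not pass, and in cerebellum their sum ran from 0.719 to 8.77 FPKM.

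Genes with the most similar profile over the 29 libraries were found by Pearson's *r* of log2 CPM. The libraries share tissues, so these are descriptions. For *Drd1* they included *Emx1* (*r* = 0.9715), a forebrain transcription factor, and *Gm37717* (0.9707). *Pdyn* was most like *Camk2n1* (0.9727), *Dlgap2* (0.9717) and *Cx3cl1* (0.9684), and *Adora2a* like *Mef2c* (0.9498), the *Gm45837*/*Pde2a* locus (0.9459) and *Pter* (0.9391). *Drd2* was nearest to *Gtdc1* (0.9471), *Tmem8b* (0.946) and *4930452B06Rik* (0.945), each with its second highest mean in testis, as for *Drd2*. *Penk* was nearest to *Dpy19l1* (0.9564), *Usp27x* (0.9473) and *Rtn4rl1* (0.9451). After its opposite-strand gene, *Ppp1r1b* was nearest to *Scamp5* (0.9728) and *Slc1a4* (0.9715). *Th* was most like *Atp1b2* (0.9854), a sodium pump subunit, *Rnf182* (0.9836) and *Nsg1* (0.9778), all highest in cerebellum. *Tac1* was nearest to *Gpr149* (0.939), *Slc35d3* (0.937) and *Grp* (0.9298). *Slc6a3* had the weakest likeness, with *Gm26644* (0.8724), *Mc3r* (0.8432) and *Krt2* (0.8428).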

How the data were processed

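Whole-number counts per gene were used as the authors deposited them, in 1 table for all 29 libraries. The submitters' processing notes name FastQC 0.11.8, MultiQC 0.9, HISAT2 2.0.5, featureCounts 1.6.3 and the build mm10. According to the paper, uniquely mapped reads alone were counted. The annotation joined PacBio Iso-seq loci with ENSEMBL genes that did not overlap them on the same strand, and no source used here states whether featureCounts used strand. All columns of the table belonged to these samples (0 others).

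Counts were tested with edgeR 4.0.16 (quasi-likelihood, TMM scaling, filterByExpr) in R 4.3.3, with the 10 group means over all 29 libraries and Benjamini-Hochberg adjustment over 29911 genes in each of 10 comparisons. All 9 genes passed the filter. Comparisons of tissues averaged group means. Correlations used log2 CPM with a prior count of 2 and exact permutation tests (scipy 1.17.1). Total counts of 11742417 to 36194255 set the precision, and a count of 0 was read as up to 3 counts per library. Replicate libraries differed beyond sampling noise in every pair. The code was tested on simulated counts. The alternatives were other scalings, no filter, single sexes, fits with the replicate number or library code as a block, DESeq2 1.42.0 and leaving out libraries.

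The 9 genes and all lists were chosen with earlier results of these data known. For each list, up to 3 called genes per direction with the greatest log2 difference and a mean of at least 1 FPKM were named, with the 3 genes most like each of the 9 and the genes that share exon bases. List genes that did not pass or lay under 1 FPKM (among them *Drd3*, *Drd4*, *Drd5*, *Adora1*, *Adora3*, *Ddc*, *Slc18a2*, *Pitx3*, *Tacr3*, *Tac4*, *Pomc*, *Foxp1* and *Scn4b*) were named after their values were seen. Some genes that met these rules are not reported here.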

Additional observations from a re-analysis of the deposited data

Results flagged for a closer look

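Of 34 sets of libraries, each of 1 gene in 1 tissue, 6 held a library far from the others by Dixon's ratio. Its rate of about 1 in 20 by chance assumes normally spread values. That rate does not hold for sets mostly at 0 counts, so the 6 are not set against it. *Ppp1r1b* stood at 4.829 FPKM (210 counts) in female heart 3 and at 0.1071 to 0.6169 FPKM in the other 4 heart libraries. *Drd1*, at 0.06561 FPKM (6 counts), and *Th*, at 0.07047 FPKM (4 counts), were high in the same library. Its cardiomyocyte markers summed to 15740 FPKM against 32540 to 41390 FPKM in the other heart libraries, and its 9 brainstem markers, at 8 loci, to 8.051 FPKM against 0.7157 to 1.228 FPKM. *Adora2a* was at 0.7867 FPKM in male cerebellum 3 and at 0.2819 to 0.4648 FPKM in the other 5 cerebellum libraries. In colon, *Drd2* had 0.04157 FPKM in male colon 1, which is 2 counts, and *Th* had 0.02872 FPKM in female colon 3, which is 1 count, with 0 in the other 5 libraries for both. The causes were not tested.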

How the results depend on the processing

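Of the 9 genes, 8 were called between brain and cerebellum under every scaling, without the filter, with DESeq2 and with a replicate block, and 7 in female or in male libraries alone. The number of all genes called there fell from 7796 to 3050 with female libraries only. Between sexes in brain, 11 genes became 4 with the library code as a block and 52 with DESeq2, and in cerebellum 9 became 22 with DESeq2. For the sex difference in brain against that in cerebellum, 0 genes became 4 with DESeq2 and ranged from 0 to 4 over fits without 1 library, the 4 being without male cerebellum 3. Without female brain 1 and 3, an alternative added after the data were seen, male minus female log2 differences turned to -0.054 for *Drd1*, -0.163 for *Penk* and 1.261 for *Slc6a3* in brain, and to 0.724 for *Slc6a3* against cerebellum. None of these was called in either fit.

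Scaling libraries by TMM moved mean FPKM of *Drd2* to 0.9029 in heart and 1.79 in testis, of *Adora2a* to 0.4009 in ovary, of *Ppp1r1b* to 0.6297 in ovary and 0.8489 in testis, of *Penk* to 31.45 in ovary and 77.31 in testis, and of *Tac1* to 0.8822 in heart and 0.9097 in ovary. The longest transcript as gene length moved *Penk* to 47.21 in ovary and 74.28 in testis and *Th* to 0.1252 in testis. The cause of the other changes was not tested. *Tac1* in testis, with an edgeR adjusted *P* of 0.0553, was called with DESeq2 (0.0393), upper quartile scaling (0.0105), total counts (0.0229), no filter (0.0189), the library code as a block (0.0366), without the 3 cerebellum libraries (0.0211) and in 6 of 29 fits without 1 library. In contrast, *Slc6a3* in colon was not called with the library code as a block (edgeR adjusted *P* = 0.0859).

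Deviations of 56 pairs with the same replicate number had a median correlation of -0.000567 and at most 0.0931. The library code is a number in the labels, and its first digit within each sex was the block, with 1-digit codes as one block. For 53 pairs that shared it, the median was 0.0141 and the highest 0.223, with 4 over 0.1. For 115 pairs that did not, the median was -0.00481 and the highest 0.279, with 2 over 0.1. These correlations cannot tell whether libraries share an animal. A replicate block gave 7073 genes for brain against cerebellum and changed no call among the 9. Leaving out 1 library also moved estimates that are no folds, to 5.97 in brain and 3.26 in colon for *Slc6a3* without female ovary 3, to 6.51 for *Pdyn* in colon without female ovary 1 and to -7.12 for *Drd2* in colon without male colon 1. Low counts limit *Slc6a3* and the peripheral values of *Drd1*, *Pdyn* and *Th*.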
